A study of Mus musculus with 8 samples.

Results

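The comparison described here was that of podocytes sorted from Emcn-knockout kidneys with podocytes sorted from wild-type kidneys, and it used 4 of the 8 mouse libraries of the series. The other 4 libraries came from glomerular endothelium of the same genotypes and entered the model of the spread. Their values also stand beside those of podocytes for some genes and lists, and 1 comparison of the genotype effects comes at the end. Podocytes were recovered from mouse kidney by fluorescence-activated cell sorting, and their polyadenylated RNA was sequenced. The knockout group was labelled EMCN-/- and the wild-type group EMCN+/+, with 2 libraries each, numbered 2 and 3. The labels gave no strain, age, sex, treatment, sorting marker or number of animals per library, and did not say whether the allele was deleted in the whole body or in 1 cell type. Because nothing states that the libraries came from separate animals, p-values measure only the spread between these libraries, which may be technical. Genes were described by whether both knockout libraries lay above, or both below, both wild-type libraries, and such genes are called separated.

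Podocytes are the epithelial cells that cover the outer face of the glomerular capillary. Their foot processes interlock across slit diaphragms, hold on to the shared basement membrane through integrins, and are built on a contractile actin network. They also secrete factors, among them vascular endothelial growth factor A, that act on the endothelium on the other side of that membrane. Endomucin, the product of Emcn, is a sialomucin of the endothelial surface and part of its glycocalyx, so podocytes and the cells that carry it face each other across the basement membrane. The study's title names the loss of this glycocalyx component and glomerular impairment as its subject.

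The 4 podocyte libraries held between 13947230 and 17386042 counts on complete table lines. All levels below are CPM, counts brought to a common library size with edgeR's TMM factors, and fold changes are knockout minus wild type on the log2 scale. The 2 knockout libraries were the least alike of the 6 pairs, with a Pearson correlation of log2 CPM across genes of 0.950, against 0.964 for the 2 wild-type libraries. Transcripts of the mitochondrial genome took 11.9% and 19.9% of counts in knockout replicates 2 and 3, and 11.1% and 15.5% in wild type. In every pairing of libraries below, the first value of a genotype is replicate 2 and the second is replicate 3.

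Emcn (Entrez 59308) was the 1 gene of 16477 that fell in knockout podocytes in edgeR's quasi-likelihood test at an adjusted p under 0.05 (0.00607% of genes tested), and 0 genes rose (0%). It lies on chromosome 3 at 137341062 to 137431069 in GRCm38.p6. Its level was 5.59 and 4.94 CPM in knockout podocytes, from 90 and 67 counts, and 74.1 and 35.9 CPM in wild-type podocytes, from 1143 and 495 counts. Both knockout libraries lay at least 6.29-fold below the nearer wild-type library, which checks the genotype labels. The log2 fold change was -3.38 ± 0.36 (SE, n = 2 per group, edgeR adjusted p = 0.0321). That call was lost, with adjusted p = 0.139, without wild-type replicate 2, in which Emcn was highest. It was also lost without knockout replicate 2 (adjusted p = 0.558) and without knockout replicate 3 (adjusted p = 0.124). For the same gene in wild-type endothelium the level was 1972 and 1828 CPM, so wild-type podocyte libraries held a small amount of it. Whether that amount came from podocytes or from endothelial RNA in the sort was not tested. Since these are bulk libraries, fewer cells of a type and less RNA per cell cannot be told apart for any gene here.

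The next smallest adjusted p was 0.972, so every other gene named below missed the threshold and is given by its values. Without adjustment, 730 genes had a p under 0.05, with 461 higher in knockout and 269 lower. DESeq2's Wald test on the same counts called 8 genes, 6 higher and 2 lower, Emcn among them.

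The labelled cell type was checked against defining markers. Synpo, which encodes the actin-associated protein synaptopodin of foot processes, had 2589 and 1727 CPM in knockout and 4773 and 1904 in wild type. Those ranges overlapped, and without wild-type replicate 2 the sign of its difference turned, from -0.63 to 0.21. Wt1, the transcription factor that maintains podocyte identity, had 283 and 389 CPM in knockout and 565 and 421 in wild type. For Podxl, the sialomucin that keeps foot processes apart, the values were 2738 and 4154 against 6298 and 4578 CPM. All 3 markers were abundant in each library, and wild-type replicate 2 was the highest for each. In endothelium Podxl lay between 753 and 1062 CPM and Wt1 between 25.5 and 55.2 CPM. The defining podocyte genes Nphs1 and Ptpro were not analysed here, because their lines in the table were incomplete.

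Markers of neighbouring cells were present as well. Across 27 endothelial markers the summed level was 1158 and 1256 CPM in knockout and 1650 and 1270 in wild type, with 3 members separated below (11.1%) and 1 above (3.70%), where 16.0% and 15.1% of all genes were. Tubule genes were present too: 18 distal tubule and collecting duct markers summed to 10372 and 17351 CPM in knockout and 12763 and 20622 in wild type. Umod, the urinary glycoprotein of the thick ascending limb, ranged from 1225 to 6018 CPM and was high in replicate 3 of both genotypes. The 13 proximal tubule markers summed to 3915 and 1113 CPM in knockout and 962 and 1930 in wild type. All 13 had a positive fold change (median 0.66), but only knockout replicate 2 was high, and without it the median was -0.64. Parietal epithelial markers, 14 genes of the cells lining Bowman's capsule, behaved alike, with 2560 CPM in knockout replicate 2 and between 1257 and 1383 CPM in the others. The 13 mesangial and mural markers summed to 1581 and 648 CPM in knockout and 1295 and 1216.5 in wild type, so that knockout replicate 3 was the lowest. Immune markers were low in every library, at 111 to 171 CPM over 17 genes. No defining marker that could be read was at 0 in any podocyte library. The part of these cells in the gene differences below was not tested.

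**Figure D1:**
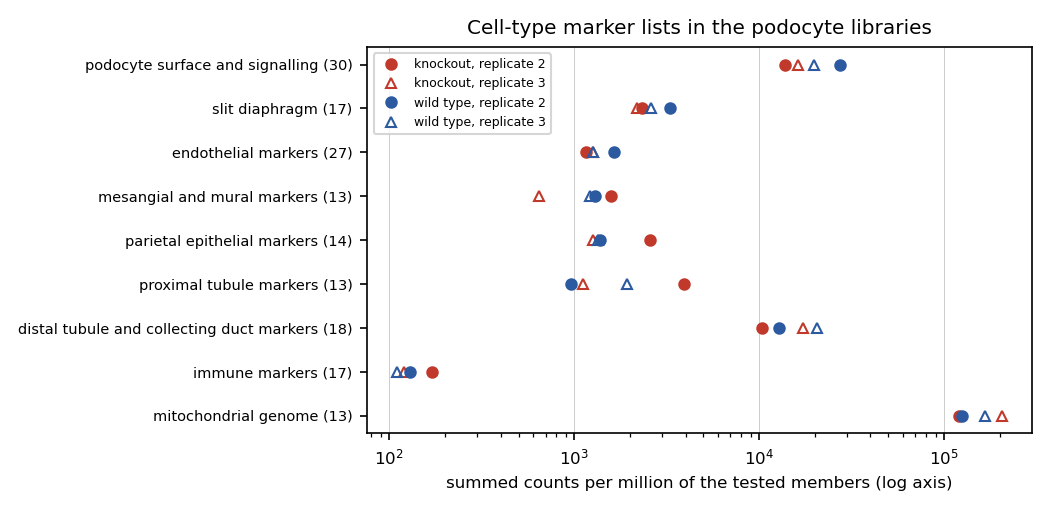
Summed level of the tested members of each cell-type list, and of the mitochondrial genome, in the 4 podocyte libraries (x axis: CPM on a log axis; number of members in parentheses). Knockout replicate 2 stands apart for proximal tubule genes at 3915 CPM, and wild-type replicate 2 for podocyte surface genes at 27271 CPM.

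Separation was mostly narrow. With 2 libraries per genotype, a random order of the libraries also separates many genes, so these counts describe order only. Both knockout libraries lay above both wild-type libraries for 2494 genes (15.1%) and below them for 2641 (16.0%). The gap between the nearest libraries of the 2 genotypes, taken on log2 CPM with a prior count of 2, had a median of 1.19-fold for genes above and 1.11-fold for genes below. It was under 1.1-fold for 2082 separated genes (40.5%). A gap of at least 2-fold was found for 200 genes above (1.21%) and 45 below (0.273%), and of these 9 and 8 had a mean of at least 5 CPM. With scaling by library size alone, which moved the median log2 fold change of all genes from 0.02 to 0.13, the split turned to 3455 above and 1662 below.

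The direction went with abundance, here the mean CPM over the 4 podocyte libraries, which is not scaled for transcript length. Among 6664 genes with a mean under 5 CPM, 1498 were above (22.5%) and 499 below (7.49%). From 5 to 20 CPM, 557 of 3075 genes were above (18.1%) and 345 below (11.2%). From 20 to 100 CPM the order turned, with 391 of 4732 above (8.26%) and 1029 below (21.7%). Of the 2006 genes at 100 CPM or more, 48 were above (2.39%) and 768 below (38.3%), with a median log2 fold change of -0.19. By library size alone the order did not turn from 20 to 100 CPM, with 16.5% above and 11.8% below, and at 100 CPM or more 24.2% were below and 7.78% above. List counts by library size alone are to be read against those shares. Endothelium showed, with TMM scaling, the same order, with 33 above (1.65%) and 941 below (46.9%) among those 2006 genes. Transcript length moved with it too: among genes at 100 CPM or more with a known length, 7.7% of those under 1000 bases were below, 27.0% from 1000 to 2000 bases, 42.7% from 2000 to 4000 bases and 42.8% of longer ones. The counts of the lists below stand beside the shares of all genes or of the abundance class that holds many of their members. The part of abundance and length in the list counts was not tested.

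**Figure D2:**
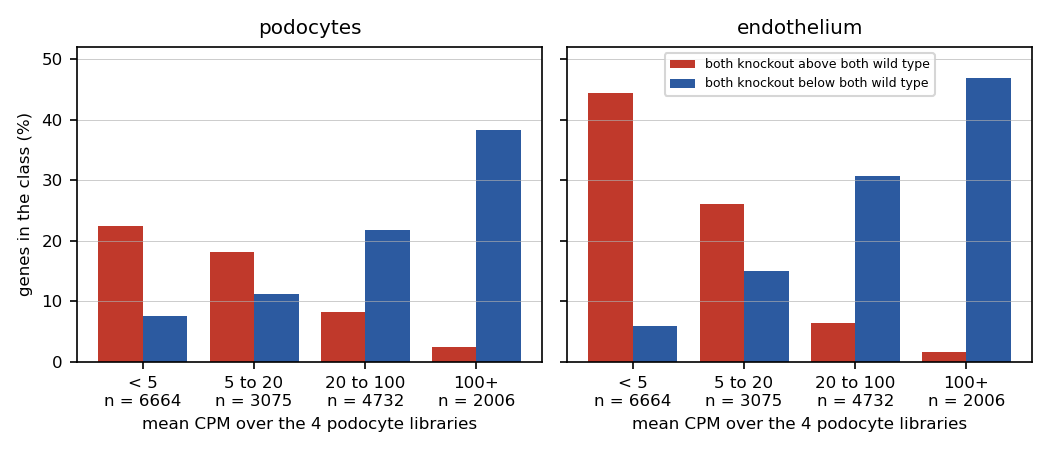
Share of genes (y axis, percent) whose 2 knockout libraries both lay above or both below the 2 wild-type libraries, by mean CPM over the 4 podocyte libraries (x axis), in podocytes and, for the same classes of genes, in endothelium. The share above falls from 22.5% to 2.39% and the share below climbs from 7.49% to 38.3% across the classes in podocytes.

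Most of the abundant genes of the podocyte surface and its signalling lay lower in knockout. Of 30 tested members 16 were separated below and 1 above, and all 16 were among the 21 members at 100 CPM or more, where 38.3% of all genes were below. The median log2 fold change was -0.46, against 0.02 over all genes. Tspan2, a tetraspanin of the membrane, had 215 and 213 CPM in knockout and 488 and 387 in wild type. Its knockout libraries agreed closely and lay 1.80-fold under the nearer wild-type library. Adm encodes adrenomedullin, a peptide that podocytes secrete and that widens vessels, and had 159 and 157 CPM against 352 and 275. Robo2, a receptor for Slit ligands that binds the slit diaphragm complex through Nck, had 286 and 298 CPM against 556 and 452. Enpep, the aminopeptidase that cuts angiotensin II, had 1721 and 1774 CPM against 3574 and 2464. Wild-type replicate 2 was the highest library in each of these 4 separated genes. Cdkn1c, which encodes the cell cycle inhibitor p57 of resting podocytes, had 1444 and 2412 CPM against 3696 and 2770. With each podocyte library left out in turn the list's median lay from -0.72 to -0.21, the latter without wild-type replicate 2. With scaling by library size alone it was -0.35, with 14 members below. In endothelium 4 of the 30 members were below, 1 of them also in podocytes, and at 100 CPM or more 2 of 21 were, against 46.9% of all genes.

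Among slit diaphragm genes 6 of 17 tested members were separated below (35.3%, against 16.0% of all genes) and 1 above, with a median of -0.31 (-0.41 to -0.17 with 1 library left out, and -0.19 by library size alone). Of the 9 members at 100 CPM or more 5 were below, where 38.3% of all genes were. Crb2, the polarity protein whose loss disrupts slit diaphragms, had 249 and 181 CPM in knockout and 490 and 322 in wild type. Tjp1 encodes the junction scaffold ZO-1 and had 331 and 272 CPM against 464 and 406. Nck2, the adaptor that links phosphorylated nephrin to actin, had 144 and 131 CPM against 231 and 172. For Fat1, the giant cadherin of the slit, the values were 196 and 210 against 315 and 245 CPM. These 4 genes were named because they were separated below, and their gaps were 1.17 to 1.29-fold. Cdh3, a classical cadherin, was the member above, at 33.3 and 44.3 CPM against 25.9 and 32.5.

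Transcription factors of podocytes were divided. Of 26 tested members 6 were separated below (23.1%, against 16.0% of all genes) and 3 above (11.5%, against 15.1%), and 13 had a positive and 13 a negative fold change. At 100 CPM or more 4 of 7 were below, where 38.3% of all genes were. Tcf21, a regulator of podocyte maturation, had 239 and 324 CPM in knockout and 513 and 351 in wild type. Foxc2, a forkhead factor of the early podocyte, had 49.1 and 60.8 CPM against 105 and 73.2. In these, and in Wt1 above, knockout replicate 3 lay close under wild-type replicate 3, by gaps of 1.08 to 1.20-fold. Heyl, a target of Notch signalling, was above, at 54.4 and 19.4 CPM against 12.8 and 17.4, but only knockout replicate 2 stood apart. The list's median was -0.01, and it was 0.11 by library size alone, 0.10 without wild-type replicate 2 and -0.29 without wild-type replicate 3.

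Actin genes of the foot process lay below in 12 of 34 tested members and above in 2. All 12 were among the 28 members at 100 CPM or more, a share near the 38.3% of all genes in that class. Clic5, a chloride channel relative that anchors ezrin and podocalyxin to actin, had 1214 and 1034 CPM in knockout and 2402 and 1752 in wild type. Myo1e, a motor whose mutation causes nephrotic syndrome, had 588 and 462 CPM against 1026 and 795. Actn4, the crosslinker alpha-actinin-4, had 2358 and 2320 CPM against 3600 and 2922. Both knockout libraries of Actn4 agreed within a narrow range. Wasl encodes the actin nucleation promoter N-WASP and had 138 and 115 CPM against 204 and 174. Lpp, a zyxin relative at focal adhesions, was above, with 113 and 85.3 CPM against 71.9 and 74.6. The list's median was -0.21, -0.10 by library size alone (9 below), -0.05 without wild-type replicate 2 and -0.42 without wild-type replicate 3. In endothelium 14 of these genes were below, 9 of them in both cell types. Of the 28 at 100 CPM or more 13 were below there, near the 46.9% of all genes.

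Regulators of integrins and small GTPases had 10 of 35 tested members below (28.6%, against 16.0% of all genes) and 4 above (11.4%, against 15.1%). At 100 CPM or more 3 of 11 were below, a smaller share than the 38.3% of all genes. The median was -0.02, and it was 0.09 by library size alone and -0.16 without knockout replicate 2 or without wild-type replicate 3. Elmo1, which with Dock proteins activates Rac1, had 53.2 and 53.4 CPM in knockout and 103 and 105 in wild type. The replicates of each genotype agreed, and the gap was 1.93-fold (log2 fold change -0.97 ± 0.28, SE, edgeR adjusted p = 0.978). Arhgef26, a guanine nucleotide exchange factor, had 26.5 and 32.2 CPM against 64.1 and 55.5. Pak1, a kinase downstream of Rac1 and Cdc42, had 526 and 616 CPM against 1106 and 838. Dock5, an exchange factor for Rac1, had 157 and 178 CPM against 255 and 222. In the other direction, Sipa1l1, a GTPase-activating protein for Rap, had 57.8 and 57.4 CPM against 30.5 and 38.3. Arhgef7, the exchange factor beta-PIX, had 23.3 and 22.1 CPM against 16.9 and 16.0. In endothelium Elmo1 was not separated and Arhgef26 was separated above, at 40.6 and 47.5 CPM in knockout and 39.6 and 33.9 in wild type.

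Among genes of the basement membrane and its receptors, 10 of 25 tested members were below and 4 above. At 100 CPM or more 7 of 15 were below, near the 38.3% of all genes in that class. Integrin subunits were found among the members below and among those above. Itgb1, the beta-1 subunit, had 1667 and 1243 CPM in knockout and 2536 and 1881 in wild type. Itga3, its main partner for laminin in podocytes, had 630 and 727 CPM against 1103 and 877. Itgav, the alpha subunit that binds vitronectin and latent TGF-beta, had 309 and 232 CPM against 504 and 419. These 3 separated genes had gaps of 1.13 to 1.36-fold. Itga2, a collagen receptor subunit, was also below, at 9.69 and 7.96 CPM against 16.9 and 18.5. Npnt encodes nephronectin, a matrix ligand of integrin alpha-8, and had 1521 and 947 CPM against 2117 and 1627. The 4 members above all had a mean under 100 CPM. They included Itgb4, the partner of alpha-6 in hemidesmosomes, at 13.4 and 10.4 CPM against 7.52 and 6.10. Frem2, a matrix protein of developing epithelia, had 14.8 and 16.6 CPM against 4.80 and 12.0, and its partner Fras1 had 57.7 and 55.7 against 30.1 and 51.9. The list's median was -0.21. It was -0.07 without wild-type replicate 2 and -0.41 without knockout replicate 2, and by library size alone 7 members were below and 6 above.

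**Figure D3:**
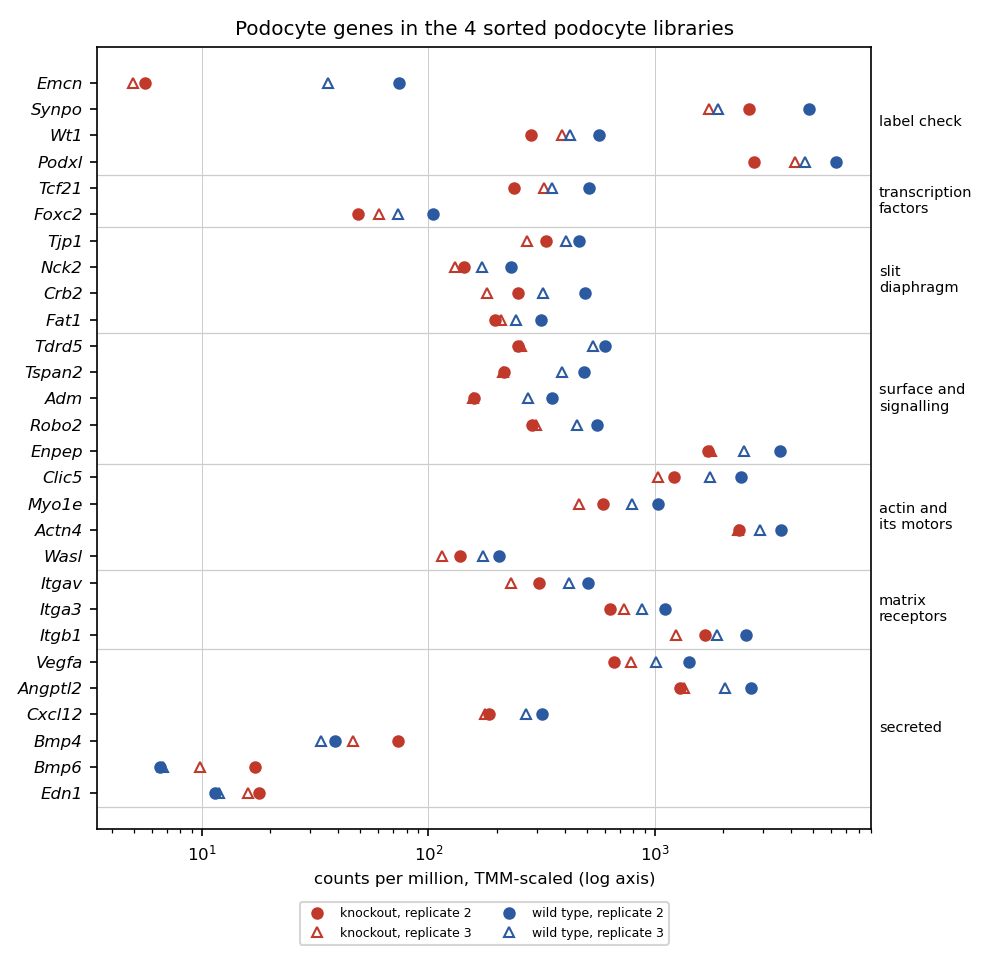
Level of Emcn and of named podocyte genes in each library (x axis: CPM on a log axis), with red for knockout, blue for wild type, filled circles for replicate 2 and open triangles for replicate 3. Apart from Synpo the genotypes do not overlap, which for most of these genes follows from the rule that chose them. Emcn shows the widest gap at 6.29-fold.

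Secreted factors through which podocytes address the endothelium were separated about as often as genes at large. Of 29 tested members 4 were below (13.8%, against 16.0% of all genes) and 5 above (17.2%, against 15.1%), and by library size alone 4 were below and 8 above. Among the 11 at 100 CPM or more 3 were below, a smaller share than the 38.3% of all genes. Vegfa, the growth factor on which the glomerular endothelium depends, had 658 and 787 CPM in knockout and 1410 and 1012 in wild type (log2 fold change -0.74 ± 0.26, SE, edgeR adjusted p = 0.978). Its highest knockout library lay 1.29-fold under the lowest wild-type library. Angptl2, an angiopoietin-like factor, had 1287 and 1342 CPM against 2666 and 2028. Cxcl12, the chemokine that signals to CXCR4 on glomerular endothelium, had 186 and 177 CPM against 316 and 270. Bmp7, a growth factor of nephron formation, had 72.1 and 91.7 CPM against 117 and 103. By the rule that named them, none of these 4 overlapped between genotypes. Among the higher ones, Bmp6 had 17.1 and 9.81 CPM against 6.55 and 6.75. Edn1, the vasoconstrictor endothelin-1, had 17.8 and 16.0 CPM against 11.4 and 11.9. Bmp4 had 73.4 and 46.6 CPM against 38.6 and 33.7. The endothelial libraries held more Edn1, at 66.9 to 133 CPM, and more Bmp6, at 24.2 to 51.4 CPM, than the podocyte libraries did. In endothelium 9 of the 29 were below and 4 above, where 19.7% and 24.8% of all genes were. Vegfa was below there too, with 116 and 105 CPM in knockout and 167 and 141 in wild type. Bmp7 was also below there, with 12.7 and 15.3 CPM against 35.2 and 37.4, and Bmp6 was above in both cell types. The list's median was 0.25, and it was -0.12 without knockout replicate 2, 0.59 without knockout replicate 3 and 0.06 without wild-type replicate 3.

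Glycocalyx genes, to which Emcn itself belongs, numbered 52 tested members, with 18 below (34.6%, against 16.0% of all genes) and 7 above (13.5%, against 15.1%), and a median of -0.06. Of the 12 at 100 CPM or more, 8 were below, where 38.3% of all genes were. Sulf1, an enzyme that removes sulfate from heparan sulfate and so releases growth factors, had 234 and 192 CPM in knockout and 462 and 349 in wild type. Sdc4, a heparan sulfate carrying syndecan, had 1420 and 1711 CPM against 2568 and 1899. Sdc2, another syndecan, had 425 and 301 CPM against 634 and 466. Hs2st1, which adds sulfate within heparan sulfate chains, had 32.7 and 32.9 CPM against 50.7 and 40.9. Knockout lay lower in these 4, whereas Sdc1 and Hs6st2, both under 30 CPM, lay higher. Sdc1 had 24.7 and 19.6 CPM against 14.6 and 14.5. For Hs6st2, a heparan sulfate sulfotransferase, the values were 15.2 and 11.2 against 4.02 and 6.68 CPM. Emcn apart, 0 of the 52 passed the test. The sign of the list's median turned to 0.06 by library size alone and to 0.05 without wild-type replicate 2, and the median was -0.38 without knockout replicate 2 and -0.23 without wild-type replicate 3.

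Of 25 tested genes of the endoplasmic reticulum stress response, 15 were separated below in knockout, where 16.0% of all genes were, and 2 above. The list holds chaperones that fold secreted and membrane proteins, together with sensors, transcription factors and degradation genes of the response. Of 13 members at 100 CPM or more 11 were below, where 38.3% of all genes were. The median log2 fold change was -0.37, and it lay from -0.40 to -0.21 with 1 library left out, the latter without wild-type replicate 2. The promoters of 5 of these genes are shown because they hold the endoplasmic reticulum stress element through which ATF6 can induce them, searched as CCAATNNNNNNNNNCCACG on both strands in windows of 300 bases around the start. It was found in 6 of the 22 members with a RefSeq promoter, 5 of them among the 13 separated below, and in 0.199% of 12063 tested genes with a promoter. The shorter element TGACGTGG was in 0 of the 22 and in 0.837% of all. The sequences below are from RefSeq (GRCm38.p6), hold the 250 bases before the start in the gene's direction, and have the element in capitals. They lie at chr2:34771840-34772089 on the plus strand (Hspa5), chr14:118937682-118937931 on the plus strand (Dnajc3), chr12:17266339-17266588 on the plus strand (Pdia6), chr8:84846932-84847181 on the minus strand (Calr) and chr11:50325674-50325923 on the minus strand (Canx).
Hspa5: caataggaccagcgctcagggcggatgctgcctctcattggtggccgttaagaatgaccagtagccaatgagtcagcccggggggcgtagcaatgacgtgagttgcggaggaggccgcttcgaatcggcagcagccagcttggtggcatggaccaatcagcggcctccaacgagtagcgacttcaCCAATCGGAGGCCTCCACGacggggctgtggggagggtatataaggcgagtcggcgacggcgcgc
Dnajc3: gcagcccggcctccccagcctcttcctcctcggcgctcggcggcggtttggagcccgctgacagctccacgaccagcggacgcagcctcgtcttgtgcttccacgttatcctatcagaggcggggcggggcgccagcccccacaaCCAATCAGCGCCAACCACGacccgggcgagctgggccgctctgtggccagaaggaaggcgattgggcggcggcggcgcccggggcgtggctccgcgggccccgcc
Pdia6: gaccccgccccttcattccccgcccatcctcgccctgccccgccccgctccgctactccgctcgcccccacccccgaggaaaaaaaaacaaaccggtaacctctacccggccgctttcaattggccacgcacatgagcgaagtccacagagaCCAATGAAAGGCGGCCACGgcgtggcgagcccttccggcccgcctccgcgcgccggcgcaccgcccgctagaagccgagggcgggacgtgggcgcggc
Calr: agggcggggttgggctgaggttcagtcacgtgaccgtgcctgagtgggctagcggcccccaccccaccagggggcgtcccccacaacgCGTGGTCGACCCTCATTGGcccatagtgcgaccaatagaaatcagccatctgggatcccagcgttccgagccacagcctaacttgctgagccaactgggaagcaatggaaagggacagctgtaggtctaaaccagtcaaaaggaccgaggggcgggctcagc
Canx: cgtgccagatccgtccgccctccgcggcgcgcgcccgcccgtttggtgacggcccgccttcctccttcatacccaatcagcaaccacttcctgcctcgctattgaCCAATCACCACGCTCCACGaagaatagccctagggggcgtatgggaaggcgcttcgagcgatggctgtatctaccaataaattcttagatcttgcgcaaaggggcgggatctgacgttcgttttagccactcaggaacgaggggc

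The element ended 47 bases before the start in Hspa5, 87 in Dnajc3, 80 in Pdia6, 127 in Canx and 144 in Calr, where it was on the opposite strand. A match describes these letters only. Hspa5, which encodes the master chaperone BiP, had 3323 and 2735 CPM in knockout and 3858 and 3346 in wild type, so that the genotypes nearly touched. Pdia6, a disulfide isomerase, had 698 and 733 CPM against 1076 and 885. Canx, the lectin chaperone calnexin, had 1103 and 865 CPM against 1443 and 1228. Its soluble relative Calr had 288 and 323 CPM against 428 and 360, and the co-chaperone Dnajc3 had 354 and 318 against 502 and 393. Calr and Dnajc3 were chosen after their values were seen, for their promoters. Wider gaps were found in Hyou1, a large chaperone that serves BiP, with 79.0 and 68.0 CPM against 152 and 112. Sdf2l1, a partner of the BiP cycle, had 64.6 and 85.7 CPM against 118 and 113. The 2 members above belong to the apoptotic arm of the stress response. Trib3, a pseudokinase, had 9.32 and 7.37 CPM against 5.90 and 4.94. Ddit3, which encodes the factor CHOP that drives this arm, had 84.2 and 89.5 CPM against 80.2 and 79.5. In endothelium 10 of the 25 members were below and 0 above, and 7 were below in both cell types. Of the 13 at 100 CPM or more 8 were below there, where 46.9% of all genes were. By library size alone 13 were below and 5 above in podocytes.

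Heat shock chaperones, a list of mostly cytosolic proteins that also respond to tissue dissociation, had 14 of 20 tested members below and 0 above, with a median of -0.30. At 100 CPM or more 12 of 17 were below, where 38.3% of all genes were. Hspa1b, an inducible Hsp70, had 8748 and 10819 CPM in knockout and 15104 and 12242 in wild type. Its neighbour Hspa1a had 5720 and 7353 CPM against 9554 and 7595. Those 2 genes are near-identical copies, so the split of reads between them is uncertain. Dnajb1, an Hsp40 that assists Hsp70, had 2345 and 1726 CPM against 3070 and 2420. Gaps in these 3 were 1.03 to 1.13-fold. Endothelium had 15 members below, 11 of them in both cell types, and 14 of the 17 at 100 CPM or more were below there, where 46.9% of all genes were. Scaling by library size alone left 6 below and 1 above. DESeq2 size factors left 10 of the 20 below, and 32.5% of all genes at 100 CPM or more. Dnajb9, a chaperone of the endoplasmic reticulum, is also in the list of the preceding group. The median was -0.14 without wild-type replicate 2 and -0.41 without wild-type replicate 3. Among immediate-early genes, which mark dissociation as well, 2 of 27 were below and 2 above (7.41% each, against 16.0% and 15.1% of all genes), with a median of 0.04. Of the 18 at 100 CPM or more 1 was below, a smaller share than the 38.3% of all genes. The median was -0.38 without knockout replicate 2 and 0.29 without knockout replicate 3. In endothelium 20 of the 27 were below, and 17 of the 18 at 100 CPM or more, where 46.9% of all genes were.

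Genes of lysosomes and autophagy had 18 of 32 tested members below (56.2%, against 16.0% of all genes) and 0 above. Of 22 members at 100 CPM or more 12 were below, where 38.3% of all genes were, and of 9 from 20 to 100 CPM 6 were, where 21.7% were. Ctsb, the protease cathepsin B, had 1455 and 1449 CPM in knockout and 2028 and 1775 in wild type. Ctsd, cathepsin D, had 1419 and 1576 CPM against 1880 and 1679. Pik3c3, the kinase Vps34 that starts autophagosome formation and whose loss in podocytes causes glomerulosclerosis, had 41.9 and 45.8 CPM against 62.5 and 57.6. Hexa, a lysosomal hexosaminidase, had 143 and 144 CPM against 201 and 169. The differences were small beside the number of genes that shared them, with gaps of 1.06 to 1.26-fold in these 4. In endothelium 15 members were below, 12 of them in both cell types. Of the 22 at 100 CPM or more 11 were below there, near the 46.9% of all genes. The median was -0.25, -0.14 by library size alone (12 below), -0.12 without wild-type replicate 2 and -0.35 without wild-type replicate 3. The element TCACGTGA, bound by TFEB, was in 3 of 23 members' promoters and in 1.62% of all.

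Genes of cholesterol and lipid metabolism had 12 of 29 tested members below (41.4%, against 16.0% of all genes). Another 2 were above (6.90%, against 15.1%), and the median was -0.15 (-0.31 without knockout replicate 2). At 100 CPM or more 4 of 7 were below, where 38.3% of all genes were, and from 20 to 100 CPM 8 of 17, where 21.7% were. Scd2, a fatty acid desaturase, had 456 and 398 CPM in knockout and 730 and 652 in wild type. Dhcr7, the last enzyme of cholesterol synthesis, had 15.8 and 26.7 CPM against 48.1 and 36.7. Msmo1, an earlier enzyme of that route, had 100 and 118 CPM against 164 and 157. These 3 enzymes were also below in endothelium, where Scd2 had 153 and 186 CPM in knockout and 264 and 248 in wild type. Of the 29 members, 17 were below there and 4 above, where 19.7% and 24.8% of all genes were. The list's median in endothelium was -0.56, and 9 members were below in both cell types. At 100 CPM or more 6 of 7 were below there, where 46.9% of all genes were. By library size alone 4 members were below and the median was -0.04.

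Genes of the energy and protein synthesis machinery have short transcripts, and how many were separated depended on the scaling. Of 52 tested nuclear genes of oxidative phosphorylation, 44 of them at 100 CPM or more, 3 were below (5.77%, against 16.0% of all genes) and 0 above, and their median transcript length was 992 bases. Of the 44 only 2 were below, where 38.3% of all genes were. With DESeq2 size factors 9 were below and 1 above, where 2443 and 2456 of all 16477 genes were. Ndufs1, the large subunit of complex I, had 294 and 288 CPM in knockout and 348 and 382 in wild type. Of 84 cytosolic ribosomal protein genes 8 were above (9.52%, against 15.1% of all genes) and 1 below (1.19%, against 16.0%). By library size alone 24 were above and 0 below, where 3455 and 1662 of all 16477 genes were. The list's median was 0.11, and -0.12 without knockout replicate 3. Rpl7 had 104 and 108 CPM against 93.8 and 84.8. The 13 protein-coding genes of the mitochondrial genome all had a positive fold change (median 0.15) and 0 were separated. Their median was 0.51 without knockout replicate 2, -0.29 without knockout replicate 3 and -0.03 without wild-type replicate 2. Without knockout replicate 2 the median of the oxidative phosphorylation list was 0.13 and without knockout replicate 3 it was -0.38, so the 2 knockout libraries lay on either side of wild type.

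**Figure D4:**
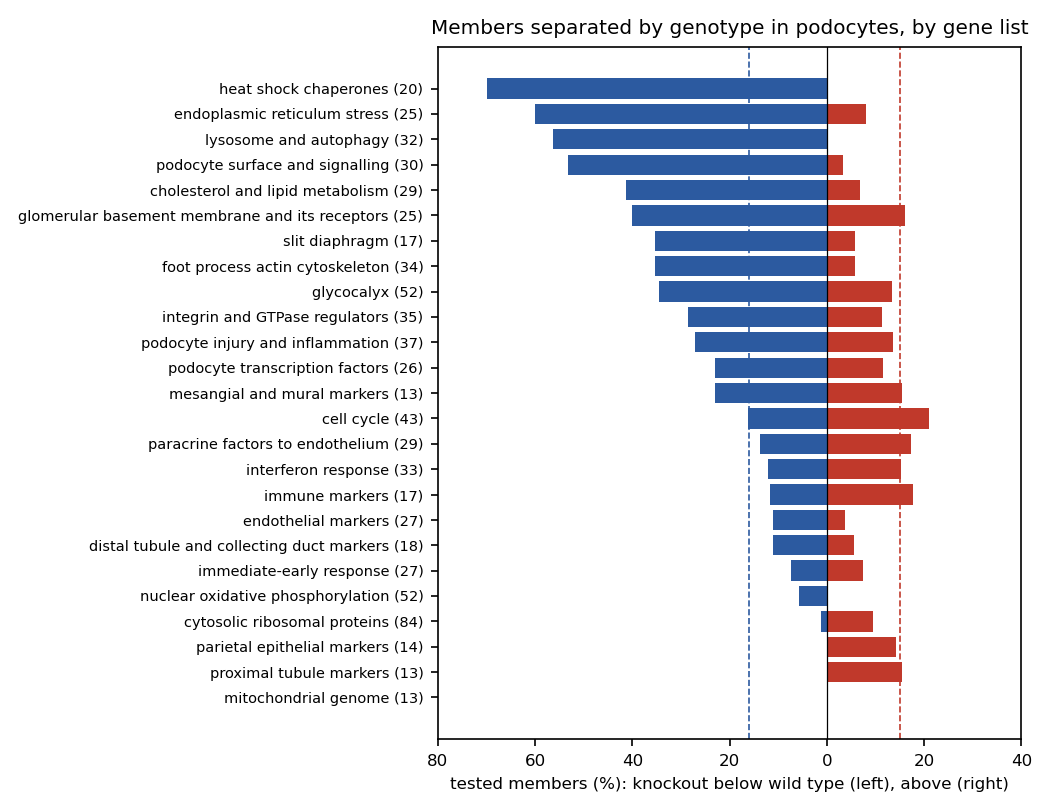
Share of tested members (x axis, percent; number tested in parentheses) separated below wild type in knockout (blue, left) or above (red, right) for each list with at least 10 tested members, with the shares over all genes, 16.0% and 15.1%, as dashed lines. Heat shock, endoplasmic reticulum, lysosomal and podocyte surface genes reach furthest left, without correction for abundance.

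The genes with the widest gaps at a mean of at least 5 CPM formed no single functional group. Highest in knockout were Prrg3, a vitamin K-dependent transmembrane protein, and Hsd11b1, the enzyme that regenerates active glucocorticoid from its inactive form. Prrg3 had 11.5 and 8.41 CPM in knockout and 1.88 and 2.18 in wild type, a gap of 3.68-fold. Hsd11b1 had 6.21 and 12.1 CPM against 1.75 and 0.726, and it was the 1 named gene besides Emcn that DESeq2's Wald test called (adjusted p = 0.0204, against 0.978 in edgeR and 0.650 to 1 over its other alternatives). Shtn1, a shootin that links actin flow to adhesion, had 14.6 and 13.8 CPM against 5.06 and 4.14. Sfrp5, a secreted antagonist of Wnt, had 13.0 and 11.2 CPM against 4.73 and 2.76. Bst1, the NAD-consuming ectoenzyme CD157, had the highest CPM of the 15, with 189 and 101 CPM against 48.3 and 53.4. Its log2 fold change was 1.51 ± 0.30 (SE, n = 2 per group, edgeR adjusted p = 0.978).

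Entpd2, an ectoenzyme that hydrolyses extracellular ATP, had 22.9 and 15.3 CPM against 5.64 and 7.04. Itgb3, the beta-3 integrin subunit that pairs with alpha-V, had 9.38 and 12.2 CPM against 3.50 and 5.01, so that it lay above while Itgav lay below. The aquaglyceroporin Aqp7 had 9.57 and 7.23 CPM against 1.23 and 3.92, and the vesicular channel Aqp6 had 9.07 and 6.19 against 3.24 and 2.90. Myo7a, an unconventional myosin, had 23.8 and 21.5 CPM against 11.3 and 10.2. Pgm2l1, a sugar phosphate kinase, had 13.2 and 13.5 CPM against 5.83 and 6.03. The remaining 4 were Zfp286, Nmrk2, Airn and Dmp1, each with a gap of at least 1.79-fold. Of the 15, Bst1, Myo7a, Aqp7 and Dmp1 were separated above in endothelium, where 24.8% of all genes were. Shtn1 was separated below there, at 9.87 and 9.29 CPM in knockout and 10.6 and 10.6 in wild type.

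Lower in knockout after Emcn came Bbs10, a chaperonin-like protein of the cilium, with 3.23 and 2.58 CPM against 10.3 and 10.5 in wild type. Tdrd5, a tudor domain protein abundant in podocytes, had 248 and 255 CPM against 601 and 530, a gap of 2.08-fold. The spread within each genotype was far smaller than that gap in these podocyte libraries, yet its standard error from all groups was 0.67 on a log2 fold change of -1.17, and in wild-type endothelium it ranged from 10.6 to 79.1 CPM. Tmc7, a transmembrane channel-like protein, had 42.7 and 43.8 CPM against 111 and 85.2. Rimkla, a ligase of N-acetylaspartylglutamate, had 3.11 and 5.01 CPM against 11.8 and 12.1. Cdca7l, a partner of Myc, had 3.04 and 7.23 CPM against 14.26 and 14.95. A pair of distal tubule genes were in this group. Calb1, the calcium buffer calbindin, had 867 and 1351 CPM against 2477 and 3898. Kl, the FGF23 co-receptor Klotho, had 304 and 308 CPM against 578 and 593. Of the 18 distal markers summed earlier, which do not include Kl, Calb1 and Pvalb were below (11.1%, against 16.0% of all genes). Another 1 was above (5.56%, against 15.1%). Of the 12 at 100 CPM or more 1 was below, where 38.3% of all genes were. The others were Smco3, Zfp974, Gdap1, Bend3, Samd5, Rwdd2b and the Rac1 regulator Elmo1, with gaps of 1.81 to 2.39-fold. Besides Emcn, Rimkla, Bend3, Calb1 and Rwdd2b were separated below in endothelium, where 19.7% of all genes were. Gdap1 was separated above there, at 9.24 and 12.9 CPM in knockout and 7.98 and 2.53 in wild type.

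**Figure D5:**
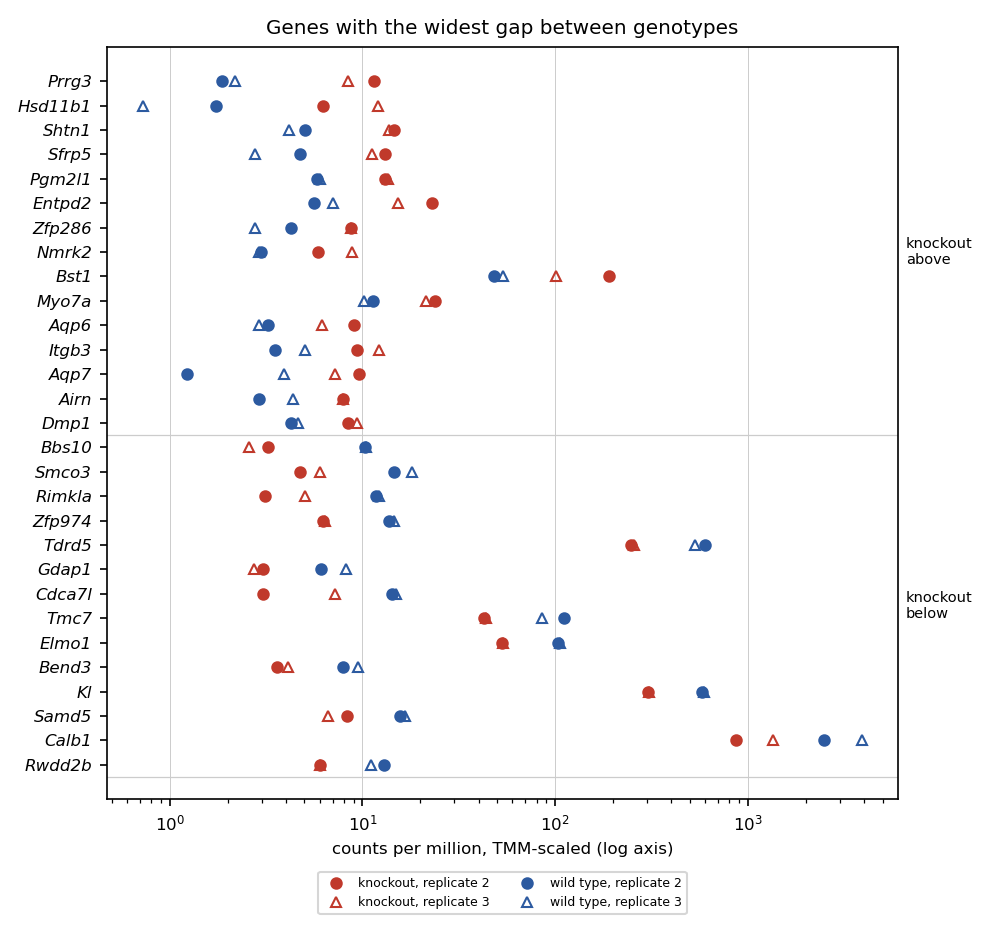
Level of the genes with the widest gaps between genotypes, other than Emcn, in each podocyte library (x axis: CPM on a log axis; colours and symbols for genotype and replicate). The genotypes do not overlap in any of the 29 genes by the rule that chose them, and most lie under 30 CPM, with Bst1, Tdrd5, Kl, Calb1, Tmc7 and Elmo1 as exceptions.

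Lists of injury, immunity and growth had members in both directions. Of 37 tested genes of podocyte injury and inflammation 10 were below (27.0%, against 16.0% of all genes) and 5 above (13.5%, against 15.1%). By library size alone 7 were below and 9 above. Of 12 members at 100 CPM or more 3 were below, a smaller share than the 38.3% of all genes. Fold changes were positive in 19 members and negative in 18, with a median of 0.07. The members given next are all among those below. Cd59a, which shields cells from complement, had 837 and 1110 CPM in knockout and 1794 and 1355 in wild type. Anxa1, an anti-inflammatory annexin, had 483 and 500 CPM against 890 and 618. Zeb1 and Zeb2, repressors of epithelial genes, were both below: Zeb1 had 22.1 and 25.2 CPM against 39.6 and 34.6, and Zeb2 had 55.3 and 43.1 against 76.0 and 75.1. Of 33 interferon response genes 5 were above (15.2%) and 4 below (12.1%), against 15.1% and 16.0% of all genes, and by library size alone 9 were above and 2 below. Of 11 members from 20 to 100 CPM 3 were below, where 21.7% of all genes were, and 17 members were under 20 CPM, with 3 above and 0 below. Ifit3, an antiviral effector, had 607 and 179 CPM against 146 and 114, with knockout replicate 2 far above the rest. Of 43 cell cycle genes 9 were above (20.9%, against 15.1% of all genes) and 7 below (16.3%, against 16.0%). Under 20 CPM 8 of 25 were above and 1 below, where 22.5% of genes under 5 CPM and 18.1% of those from 5 to 20 CPM were above. By library size alone 14 of the 43 were above and 3 below. Ccnd2, a cyclin of the first gap phase, had 38.7 and 43.1 CPM against 20.6 and 32.8, whereas E2f1, a driver of entry into DNA synthesis, had 55.6 and 86.1 against 154 and 91.6. Aqp1, the water channel of proximal tubule and endothelium, had 1084 and 428 CPM against 228 and 279, and in endothelium it was above as well, at 518 and 311 against 126 and 221.

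The genotype difference in podocytes was set against that in endothelium. Both knockout libraries lay above both wild-type libraries in endothelium for 4092 genes (24.8%) and below for 3245 (19.7%). A total of 946 genes were above in both cell types, which is 37.9% of the podocyte list and 23.1% of the endothelial list. Below in both were 995 genes, 37.7% and 30.7% of the respective lists. Opposite directions were seen for 279 genes below in podocytes and above in endothelium, and for 215 the other way. A test of the difference between the 2 genotype effects called 0 genes (0%) in edgeR at an adjusted p under 0.05, with 428 genes at an unadjusted p under 0.05. DESeq2's Wald test also called 0, with 491 at an unadjusted p under 0.05. For Emcn the 2 effects differed by 0.05 ± 0.48 on the log2 scale (SE, edgeR adjusted p = 1). No gene is thus shown to respond in podocytes differently from endothelium.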

How the data were processed

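The authors deposited 1 table of raw counts per Entrez gene for 8 libraries. Its lines were read 1 by 1: 17326 of 22533 held all 8 counts, and the other 5207 (23.11%), all with a comma in the description, were not analysed here. Those short lines left unreadable cells in 3 columns, whose deposited values on complete lines were whole-number counts like the rest. The submitters' processing notes name mm10 and DESeq2. The aligner, the counting tool and the use of strand are not given in the sources used here, so reads of overlapping genes cannot be told apart (82 of 198 genes met by the naming rule overlap another in RefSeq, Emcn with Gm38650).

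Samples were grouped by the labels' titles. Counts were analysed with edgeR 4.0.16 in R 4.3.3: filterByExpr by the 4 groups (16477 genes), TMM scaling (a trimmed mean of log ratios between libraries), 1 mean per group over all 8 libraries, the quasi-likelihood F test and Benjamini-Hochberg adjustment over all genes, with a threshold of 0.05. Standard errors were obtained as the ratio of the log2 fold change to the root of its F statistic. CPM used TMM-scaled library sizes, and gaps used log2 CPM with a prior count of 2. The fit was tested on simulated data. Totals of 13947230 to 17386042 counts leave out the short lines. In a binomial test scaled to raw library totals, 63.6% of 14994 genes differed between the knockout replicates at an unadjusted p under 0.05. Between the wild-type replicates 58.6% of 14398 genes did. Genes with few counts were left out of that test.

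The rule, the 26 gene lists and the tests were chosen with earlier results of these data known. Named genes were Emcn, 3 markers, the 15 separated genes in each direction with the widest gap at a mean of at least 5 CPM (without predicted genes), and up to 4 per direction and the 3 most abundant of each list. A few of them are not reported here. Classes of abundance and length were chosen after seeing the data. Transcript lengths came from GENCODE M21 (85.6% of genes) and positions and promoters from RefSeq GRCm38.p6 (15672 genes with an entry). Alternatives were DESeq2 1.42.0 (size factors and Wald test), limma 3.58.1 voom with sample quality weights, scaling by library size, 2 other filters, a replicate block, only the podocyte libraries, no mitochondrial genome, other thresholds, and each podocyte library left out in turn.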

Additional observations from a re-analysis of the deposited data

How the results depend on the processing

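With 2 libraries per genotype, low counts and 1 library decide much of what can be called. Emcn was 1 of 1 genes called with DESeq2 size factors, with no filter beyond 1 count and without the mitochondrial genome. It was lost, leaving 0 calls, with scaling by library size only (log2 fold change -3.26, adjusted p = 0.0786), limma voom (-3.30, 0.850), a mean of at least 5 CPM (-3.30, 0.0978) and only the 4 podocyte libraries (-3.37, 0.194). The DESeq2 Wald test called 8 genes. Leaving out 1 podocyte library, with the lone sample assumed to vary like the other groups, gave 0 to 1 calls and a log2 fold change of Emcn from -3.81 to -2.74, and the call was kept only without wild-type replicate 3. Same-numbered podocyte libraries deviated together weakly (correlation 0.157 over 2 pairs), which does not show that the numbers pair them, and the replicate block gave -3.34 for Emcn (adjusted p = 0.00669) and 1 call. Separated genes numbered 5135, 3187 at a mean of at least 5 CPM, 750 with a gap of at least 1.5-fold, 245 with 2-fold, and 9645 to 12272 with 1 library left out, where fewer libraries make separation easier. The test of the difference between cell types called 0 genes under each alternative that was run. With 1 library left out, 4 genes that the text names turned sign in podocytes, with log2 fold changes from -1.15 to 0.21 for Synpo, -1.66 to 0.93 for Umod, -2.07 to 0.92 for Igfbp7 and -0.86 to 5.94 for Ren1. No sign of a named gene turned under the scalings, tests and filters run. The cause of these changes was not tested.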

Other observations

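A few genes not described above differed strongly between libraries of 1 genotype. Ren1, the renin gene of juxtaglomerular cells, had 195 and 29.3 CPM in knockout replicates 2 and 3 and 1.81 and 104 CPM in wild type. Spp1, which encodes osteopontin, had 10076 and 5146 CPM in knockout and 3728 and 5900 in wild type. Igfbp7, a secreted binding protein of insulin-like growth factors, had 2731 and 525 CPM in knockout and 3495 and 888 in wild type, with replicate 2 higher in both genotypes.

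Of the 8 genes that the DESeq2 Wald test called, 6 lay outside the naming rule and were picked out after their values were seen. Havcr1, the tubular injury marker KIM-1, had 197 and 29 counts in knockout and 4 and 12 in wild type. Mmp7, a matrix metalloproteinase of injured tubule, had 260 and 12 counts against 0 and 3. Nhlrc4 had 141 and 7 counts against 2 and 1. In these 3 the difference rested mostly on knockout replicate 2, the library with the highest proximal tubule sum. Cd209a, a lectin of dendritic cells, had 32 and 28 counts against 0 and 0, and Ube2c, a ubiquitin ligase component of dividing cells, had 32 and 41 against 0 and 5, so that both knockout libraries contributed. The lower one was G530011O06Rik, with 39 and 61 counts against 151 and 228. None of the 6 passed edgeR's test (adjusted p of at least 0.972).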
